A study of Bos taurus with 18 samples.

Results

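One of 18 bovine RNA-seq libraries, labelled as the third immortalized library of a Holstein-like fibroblast line, was compared with the 9 libraries of a Simmental-like fibroblast line. A gene was taken as a member of the comparison when its counts scaled to a column total of 1e+06 (CPM) in that library lay at least 4-fold above the highest, or at least 4-fold below the lowest, of the 9, with at least 10 CPM on the higher side. Of 24596 genes in the table, 1017 lay above and 347 below. The members were chosen by their CPM in these 10 libraries, so all of the fold differences from the 9 are descriptions, and 1 library without a replicate allows no test and no p-value. Of the 18879 genes with a count in any of the 10 libraries, the members above were 5.39% and the members below 1.84%, and of the 9716 genes at 10 CPM or more in the library or in all 9 they were 10.5% and 3.57%. Nothing is read from these shares, since the rule fixed them.

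The study followed fibroblasts, the collagen-making cells of connective tissue, of Holstein-like and Simmental-like cattle through primary culture, senescence and spontaneous immortalization, with 3 libraries labelled as biological replicates per line and stage. The 10 libraries compared are the third Holstein-like immortalized library and 3 Simmental-like primary, 3 senescent and 3 immortalized libraries. The other 8 Holstein-like libraries (3 primary, 3 senescent, 2 immortalized) served as a second set of values that the rule had not used. The cell line label has 1 base name per breed, BF-15 for all Holstein-like and BF-13 for all Simmental-like libraries, with a prefix for the stage (P, Sn or HUN). The sample descriptions differ from it: they name BEF for the Holstein-like primary libraries, and BDF-20 for the Simmental-like primary and senescent libraries but BF-13 for the immortalized ones. The senescent Simmental-like descriptions also carry the term MultiXray-Ctrl, whose meaning is not given in the sources used here, so whether these 3 libraries had a treatment or were its controls is not known here. The labels name no introduced gene. Below, "the library" is the Holstein-like immortalized library 3, "the 9" are the Simmental-like libraries and "the other 8" are the remaining Holstein-like libraries. A set of 3 values after a gene gives the lowest, median and highest of the 9.

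Dispersed fibroblasts in culture divide, spread on a stiff surface and make much collagen, tenascin and thrombospondin. In intact connective tissue most fibroblasts are out of the cell cycle and share the matrix with vessels lined by endothelial cells and wrapped by pericytes, with resident macrophages, lymphocytes and plasma cells, and with nerve fibres ensheathed by Schwann cells. Each of these cell types carries transcripts that fibroblasts make little of, so the transcripts in a bulk library can be read against lists of such markers, although a bulk library cannot tell fewer cells of a type from less RNA per cell.

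The library held 14 M counts (M for 1e+06), against 18.2 to 23.2 M in the 9 and 1.42 to 14.1 M in the other 8. It had 12924 genes at 1 CPM or more, above all of the 9 (11115 to 12099) and inside the range of the other 8 (10110 to 13190). Its 10 most abundant genes took 12.8% of the counts, inside the range of the 9 (8.03% to 14.4%), against 18% to 32.5% in the other 8. A count of 0 in the library allows up to 3 counts, which is 0.215 CPM, and in the shallowest of the 9 up to 0.165 CPM. These limits and the intervals below cover counting error only, at the 95% level. Several of the other 8 do not have the transcripts of a fibroblast culture: MYH1, a myosin of fast skeletal muscle, took the most counts in all 3 Holstein-like primary libraries, and ALB or FGB, genes of hepatocytes, took the most in 2 of the senescent libraries and 1 of the immortalized libraries.

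The 4 marker genes of the label and the proliferation gene MKI67 gave a mixed answer. COL1A1, which encodes the main chain of type I collagen, was at 24417 CPM in the library against 13675, 18982 and 28537 CPM in the 9, and so inside their range. COL1A2, the partner chain, was at 18139.7 CPM against 4740, 9468 and 12806 CPM, above all of the 9 by 1.42-fold. The other 8 had 16.6 to 187 CPM of COL1A1 and 28 to 227 CPM of COL1A2, and none of them reached the library. GPNMB, a glycoprotein of lysosomes in macrophages and some stromal cells, was at 2859.7 CPM against 42.1, 268 and 285 CPM, 10.02-fold above the highest of the 9. SPP1, which encodes osteopontin, went the other way: at 209 CPM it lay below all of the 9 (319.7, 1132 and 1362 CPM), though by only 1.53-fold from the lowest of them. The library had been picked among the Holstein-like libraries with its collagen and MKI67 values known, so these differences from the other 8 are descriptions and no findings. MKI67, which marks dividing cells, was at 11.6 CPM against 94.8, 387 and 489 CPM, 8.17-fold under the lowest of the 9, and the other 8 were lower still (0.426 to 5.64 CPM).

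**Figure D1:**
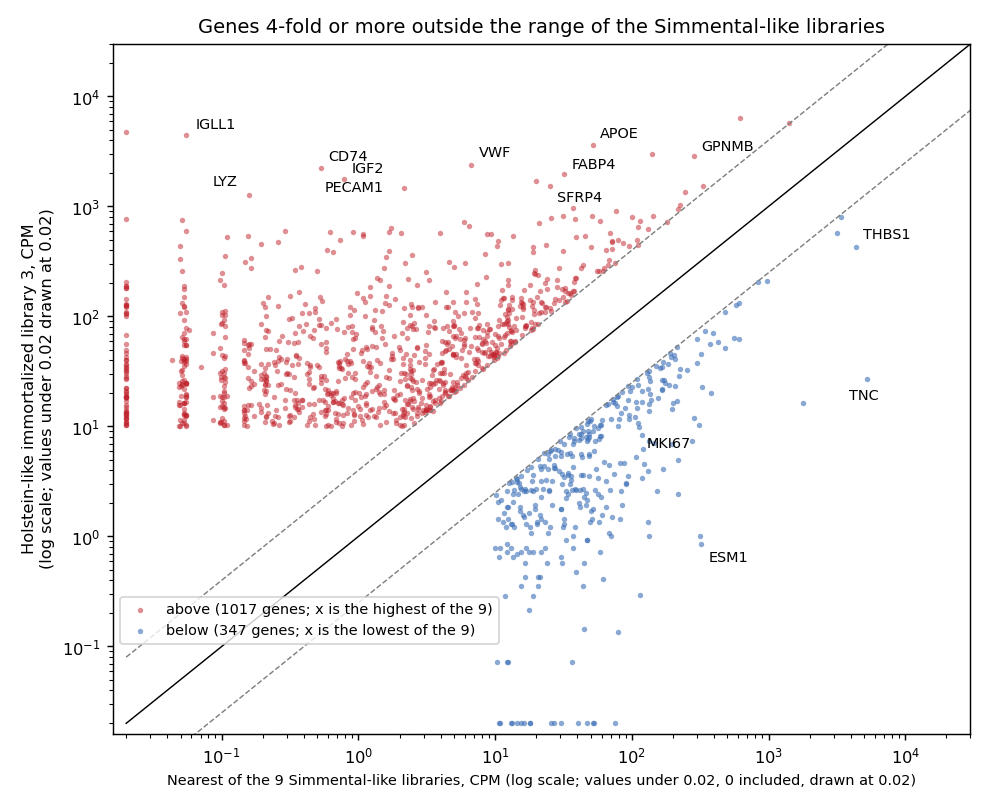
Each point is 1 of the 1364 genes that chose the comparison, with the CPM of the library on the vertical axis and the nearest of the 9 Simmental-like libraries on the horizontal axis, both on log scales. The solid line marks equal values and the dashed lines a 4-fold difference; many genes above the upper line are at or close to 0 on the horizontal axis, while most genes below the lower line are at 1 CPM or more in the library.

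Many of the members above had hardly any transcripts in the cultured cells. Of the 1017 genes, 62 had no count in any of the 9 and 472 were at 1 CPM or less in all of them. Their median ratio to the highest of the 9 was 29.2, and 387 were at least 64-fold above. Together they took 14.3% of the counts of the library, 0.483% to 0.685% in the 9 and 3.37% to 13.3% in the other 8. The 347 members below were less far away, with a median ratio of 9.05, and 17 of them had no count in the library. They took 0.554% of its counts, 6.54% to 8.99% in the 9 and 0.716% to 2.96% in the other 8. Just inside the upper limit were EXOC6, TNS1 and FAM117A with ratios of 4.00, 4.00 and 4.01, and just outside it MASP2, PLCG1 and ADAM15 with 3.99, 3.98 and 3.97. At the lower limit RAD18, TYMS and CBX5 lay just inside with ratios of 4.00, 4.02 and 4.03, and CDC25B, HSPA9 and IPO4 just outside with 3.992, 3.995 and 3.985.

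To see which cell types the transcripts pointed to, 35 lists of cell type markers were summed in every library. In 13 of the 35 the sum in the library was at least 4-fold above the highest of the 9. This number was 13 with TMM, RLE and upper-quartile scaling too. The endothelial list lay farthest away. In CPM, 4 lists (endothelial, T and NK cell, B and plasma cell, Schwann cell and glia) were also at least 4-fold above the highest of the other 8, but with each of the 3 other scalings only the B and plasma cell list was. That list rested mainly on 1 gene, since IGJ made up 348 of its 376 CPM, and 2 of its 9 genes were members above. With TMM scaling the ratio to the highest of the other 8 fell from 6.01 to 3.52 for the endothelial, from 4.63 to 2.46 for the T and NK cell and from 4.01 to 2.35 for the Schwann cell list, and it was 5.98 for the B and plasma cell list. In CPM 16 lists were higher than all of the other 8, but some were not with RLE scaling. Their ratios were then 0.927 (connective tissue fibroblast), 0.935 (macrophage), 0.938 (adipocyte), 0.762 (melanocyte) and 0.547 (cultured fibroblast). As a background for the list values, the median log2 difference between the library and the median of the 9 over all 18879 genes was 0. By any amount, 29.4% of these genes were higher in the library than in all of the 9 and 22.3% were lower, and counts of list genes beyond all of the 9 can be read against these shares.

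**Figure D2:**
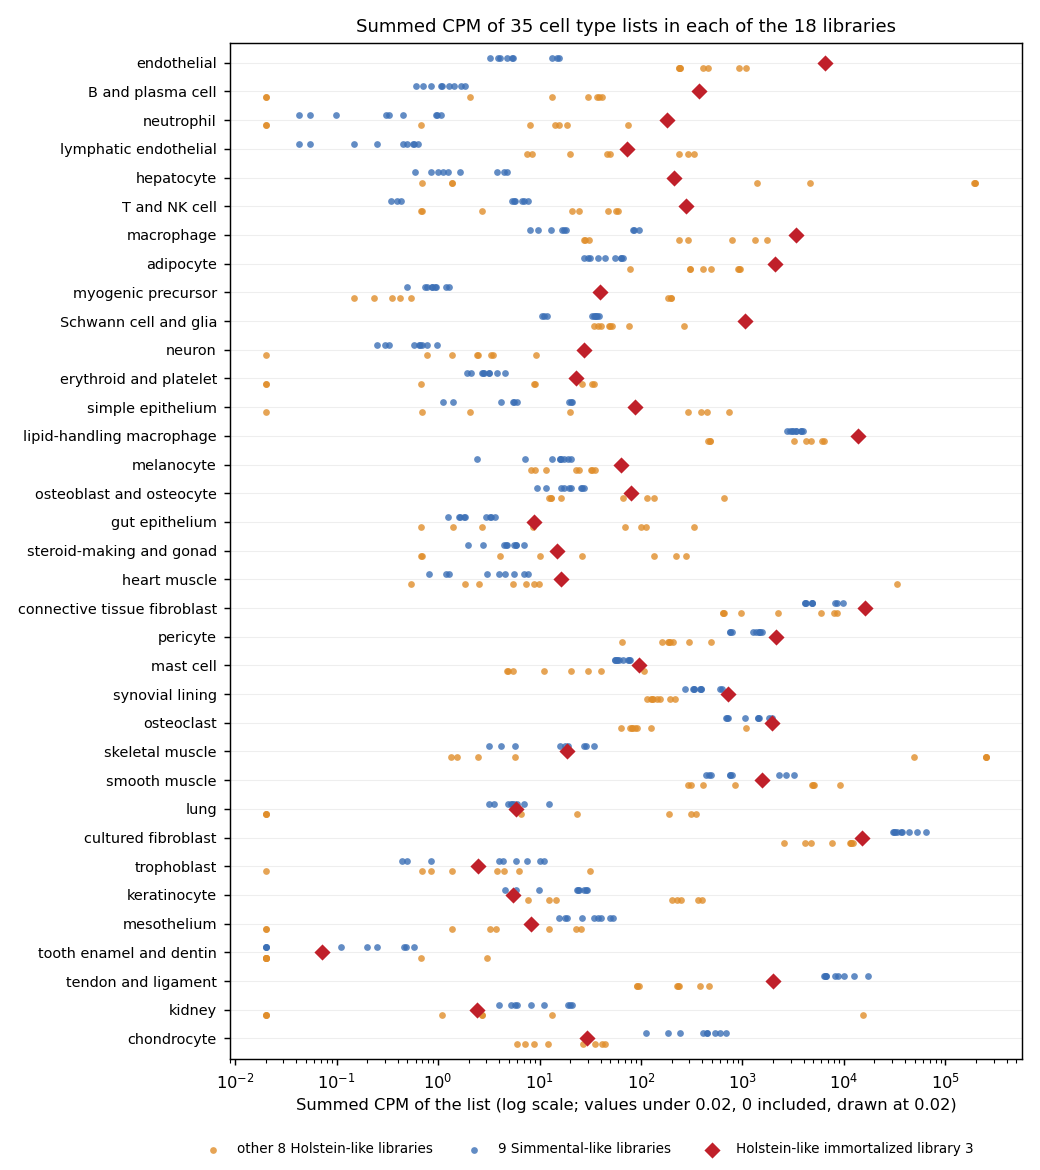
The summed CPM of each of 35 cell type lists is drawn on a log scale, 1 point per library, with lists ordered by the ratio of the library to the highest of the 9 Simmental-like libraries. The endothelial sum of 6526 CPM in the library stands right of all other libraries, while the chondrocyte and tendon sums at the foot of the plot, which rest in the 9 mainly on COL11A1 and on TNC, lie left of all of the 9.

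Among the cell type lists the endothelial genes stood farthest apart. All 12 genes of the endothelial list were members above, with a median log2 difference of 8.61, and their sum was 6526 CPM in the library, 3.26 to 15.5 CPM in the 9 and 235 to 1086 CPM in the other 8. VWF, the clotting factor stored by endothelial cells, was at 2401 CPM in the library against 1.33, 2.25 and 6.68 CPM in the 9, a ratio of 359 to the highest. PECAM1, an adhesion molecule of the junctions between endothelial cells, was at 1459.9 CPM against 0.405, 0.659 and 2.16 CPM. KDR, a receptor for vascular endothelial growth factor, was at 580.3 CPM against 0, 0.274 and 1.68 CPM. In each of these 3 genes the other 8 lay between the 9 and the library, at 20.1 to 555 CPM for VWF, 29 to 169 CPM for PECAM1 and 18.5 to 296 CPM for KDR, and no other library reached the library. CLDN5, a tight junction protein of vessels, was at 529.8 CPM, and the highest of the 9 rested on so few counts that the ratio has a counting interval of 1335 to 39849.5. CDH5, which encodes vascular cadherin, was at 283 CPM against 0.0494, 0.158 and 0.381 CPM. The remaining members of the list, EMCN, ERG, ESAM, EGFL7, ROBO4, TEK and TIE1, were at 38.4 to 353 CPM in the library and at 3.14 CPM or less in every one of the 9.

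Genes of different vessel segments were present together. The following genes outside the lists were chosen after their values were seen. ACKR1, SELP and SELE, which are known from venules, were at 167, 94.7 and 34.8 CPM in the library, and the 9 had at most 0.368, 0.515 and 0.155 CPM. DLL4, GJA5 and SOX17, known from arterial endothelium, were at 79, 45.9 and 40.9 CPM, and the 9 had at most 0.58, 0.824 and 0.0544 CPM. PLVAP, which forms the diaphragms of endothelial pores, and CD93 were among the members with the largest ratios, at 539 and 439.9 CPM with at most 0.155 and 0.0494 CPM in the 9. The lymphatic endothelial list was weaker. Its sum was 72.4 CPM against 0.0431 to 0.629 CPM in the 9, with RELN (36.2 CPM), LYVE1 (11.2 CPM) and CCL21 (10.4 CPM) as members, but the other 8 reached 331 CPM, so the library was not the highest Holstein-like library in this list.

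Mural cells, the pericytes and smooth muscle cells around vessels, gave a split list. Of the 9 pericyte genes 6 lay above and 1 below, and the sum was 2158 CPM against 753 to 1546 CPM in the 9 and 64.8 to 493 CPM in the other 8. RGS5, a regulator of G protein signalling made by pericytes, was at 189 CPM against 0, 0 and 0.0526 CPM, with a counting interval of 642 to 141544 for the ratio. NOTCH3, a receptor of mural cells, was at 450.1 CPM against 6.37, 11.4 and 23.6 CPM. MCAM, an adhesion molecule shared with endothelium, was at 314 CPM against 0.198, 2.71 and 4.61 CPM. PDGFRB, the receptor by which pericytes are recruited and which fibroblasts share, was at 947 CPM against 62.5, 111 and 219 CPM, a ratio of 4.32 that falls just under 4 with TMM scaling. By contrast CSPG4 and CD248, markers that cultured fibroblasts also carry, were lower in the library than in all of the 9, at 22.8 against 100, 189 and 235 CPM and 152 against 389.8, 1114 and 1282 CPM. Of 9 smooth muscle genes 3 were members above, and by any amount 5 were higher and 2 lower than in all of the 9. Their sum of 1557 CPM lay inside the range of the 9 (437 to 3244 CPM) and of the other 8 (290 to 9143 CPM). MYH11, the myosin of contractile smooth muscle, was at 306 CPM against 0.216, 0.635 and 2.18 CPM, and it was higher than in all of the other 8 (39.1 to 148 CPM). DES, the intermediate filament of muscle, was at 187 CPM against at most 1.21 CPM in the 9, and MYLK, the kinase that starts contraction, at 114 against 3.56, 7.78 and 19.2 CPM. Both DES and MYLK lay within the range of the other 8 (30.4 to 6740 CPM and 7.54 to 169.6 CPM). ACTA2 at 567 CPM lay inside the range of the 9 (150.4, 394 and 2525 CPM), which activated fibroblasts in culture share.

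Macrophage transcripts were present nearly as a whole list. Of 18 macrophage genes 17 were members above, all 18 were higher than in all of the 9, and the median log2 difference was 7.47. The sum was 3362 CPM in the library, 8.07 to 94.8 CPM in the 9 and 27.4 to 1763 CPM in the other 8. CD68, a lysosomal glycoprotein of macrophages, was at 579 CPM against 1.09, 2.66 and 3.95 CPM, and the other 8 reached 53.1 CPM. CSF1R, the receptor for the growth factor that keeps macrophages alive, was at 188 CPM against 0.148, 1.15 and 1.67 CPM. C1QA, a chain of the first complement component that tissue macrophages secrete, was at 143 CPM with 0 counts in all of the 9, at least 866-fold above the 3 counts that a 0 allows. For C1QA the groups do not separate the library from every Holstein-like library, since the other 8 ranged from 2.11 to 216 CPM. PTPRC, the surface phosphatase of all white blood cells, was at 150.4 CPM against 0, 0.0484 and 0.22 CPM, and LAPTM5, a lysosomal protein of blood cells, at 902 against 0, 1.34 and 76.2 CPM. MARCO, a scavenger receptor of some macrophages, was the 1 gene of the list that did not pass, at 0.358 CPM. LYZ, which encodes lysozyme, was among the members with the largest ratios, at 1267 CPM against 0, 0.0484 and 0.158 CPM, with a counting interval of 2746 to 38924 for the ratio and 0.685 to 43.5 CPM in the other 8.

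Of 14 entries of the list for lipid-handling macrophages 7 lay above, with a sum of 13697 CPM against 2769.5 to 3955 CPM in the 9. By any amount, 8 were higher and 1 lower than in all of the 9, and 5 lay inside their range. The lower one was SPP1, at 209 CPM against 319.7, 1132 and 1362 CPM. APOE, a carrier of lipids between cells, was at 3632 CPM against 21.2, 36.4 and 51.7 CPM, but 2 of the other 8 were higher (16.4 to 5597 CPM). CD36, a fatty acid transporter of macrophages, fat cells and capillaries, was at 1694 CPM against 0.296, 2.91 and 20.0 CPM. LIPA, the acid lipase of lysosomes, was at 816 CPM against 25.7, 45.1 and 51.4 CPM. TREM2, a lipid receptor of macrophages, was at 49.2 CPM and at most 0.145 CPM in the 9. CATD, the older symbol under which the table lists cathepsin D, took the most counts of all members above with a symbol. It was at 6404 CPM against 272, 475 and 619 CPM in the 9 and 172 to 715 CPM in the other 8, so that the library was highest of all 18. Among 22 lysosome genes 12 were higher and 2 lower than in all of the 9, and of this list only CTSS passed 4-fold, at 578 against 3.04, 28.4 and 69.7 CPM. Outside the list and chosen after their values were seen, the lysosomal genes LGMN, CTSC, MAN2B1 and GRN were members above, with ratios of 5.96, 5.64, 5.45 and 4.59 to the highest of the 9. FTH1, which stores iron as the heavy chain of ferritin, was at 5709 CPM against 446, 722 and 1404 CPM, a ratio of 4.07 that does not reach 4 with any of the 3 other scalings. Of 13 genes of osteoclasts, the macrophage relatives that resorb bone, 8 were higher and 1 lower than in all of the 9, 2 were members above and 1 below, and the median log2 difference was 2.05. The members above were ACP5, an acid phosphatase, at 304 CPM against 1.4, 2.44 and 5.98 CPM, and ATP6V0D2, a proton pump subunit, at 25.1 CPM with at most 0.105 CPM in the 9 and up to 85.7 CPM in the other 8. OSCAR was the member below (2.08 against 13.5, 19.5 and 30.7 CPM), and CALCR had no count. The sum of 1938 CPM lay inside the range of the 9 (696 to 1958 CPM), since most of it came from CTSK, at 1374 CPM against 627, 1322 and 1837 CPM.

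MHC class II genes, by which macrophages, dendritic cells and B cells present antigen, were near 0 in the cultured cells. Of the 7 entries 6 were members above and all 7 were higher than in all of the 9. The sum was 3556 CPM against 1.03 to 3.00 CPM in the 9 and 129.9 to 1095 CPM in the other 8. CD74, the chaperone of class II molecules, was at 2231 CPM against 0, 0.101 and 0.532 CPM. BOLA-DRA, the bovine class II alpha chain, was at 746 CPM with at most 0.0515 CPM in the 9 and 21.8 to 296 CPM in the other 8. CIITA, the factor that switches on class II genes, was at 30.9 CPM against 0, 0 and 0.0967 CPM, so the regulator and its targets were found on the same side. Some BOLA genes are close copies of each other, and reads may have been split between those, so single BOLA values are uncertain.

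Lymphocyte and plasma cell transcripts were fewer but present. Of 14 entries for T and NK cells 6 were members above, 13 were higher than in all of the 9, and the sum was 277 CPM against 0.345 to 7.68 CPM in the 9 and 0.685 to 59.9 CPM in the other 8. CD3E, a chain of the T cell receptor complex, was at 57.9 CPM against 0, 0.0544 and 0.339 CPM. NKG7, a granule protein of cytotoxic cells, was at 93.8 CPM against 0, 0 and 0.103 CPM. GZMB, a granule protease, had no count in 1 of its 2 entries and 0.429 CPM in the other. IGJ, the joining chain of secreted antibody polymers, was at 348 CPM against 0.435, 0.824 and 1.58 CPM in the 9 and 0 to 31.4 CPM in the other 8, and MZB1, a chaperone of plasma cells, at 10.2 CPM. The markers of B cells before they secrete antibody were far lower, with MS4A1 at 0.859 CPM, CD79B at 0.787 CPM and PAX5 at 0.0716 CPM. IGLL1, an immunoglobulin lambda-like entry that may share reads with other light chain genes, was among the members with the largest ratios. It was at 4491 CPM in the library, had 1 count in just 1 of the 9 (0.0549 CPM), so that the ratio has a counting interval of 14683 to 3231510, and was at 0 to 247 CPM in the other 8. An entry without a gene symbol, ENSBTAG00000048135, was at 4742 CPM in the library, more than IGLL1, with 0 counts in all of the 9 (at least 28790.4-fold above the 3 counts that a 0 allows) and 0 to 321 CPM in the other 8.

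Other white blood cells left smaller traces. Neutrophil genes summed to 182 CPM, of which S100A12 gave 152 CPM, with 0.0431 to 1.06 CPM in the 9 and up to 75.1 CPM in the other 8. KIT, the stem cell factor receptor of mast cells, was at 50.2 CPM against 0, 0 and 0.21 CPM, and it was the 1 member above in a mast cell list of 6. Of 12 erythroid and platelet entries 7 had no count in the library, yet their sum of 23 CPM was 1 of the 13 that lay 4-fold above the 9 (1.94 to 4.59 CPM), and the other 8 reached 34.5 CPM. More than any other gene, ITGA2B, an integrin of platelets, made up this sum. It was the 1 member above, at 12.5 CPM against 0.714, 1.27 and 2.12 CPM. The platelet chemokine PF4 was at 5.73 CPM and the globin gene HBB at 3.44 CPM, with at most 0.346 and 0 CPM in the 9, both under the limit of 10 CPM. The globin gene HBM and 1 of 2 entries of HBA had no count, and the other HBA entry was at 0.859 CPM with at most 1.47 CPM in the 9.

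**Figure D3:**
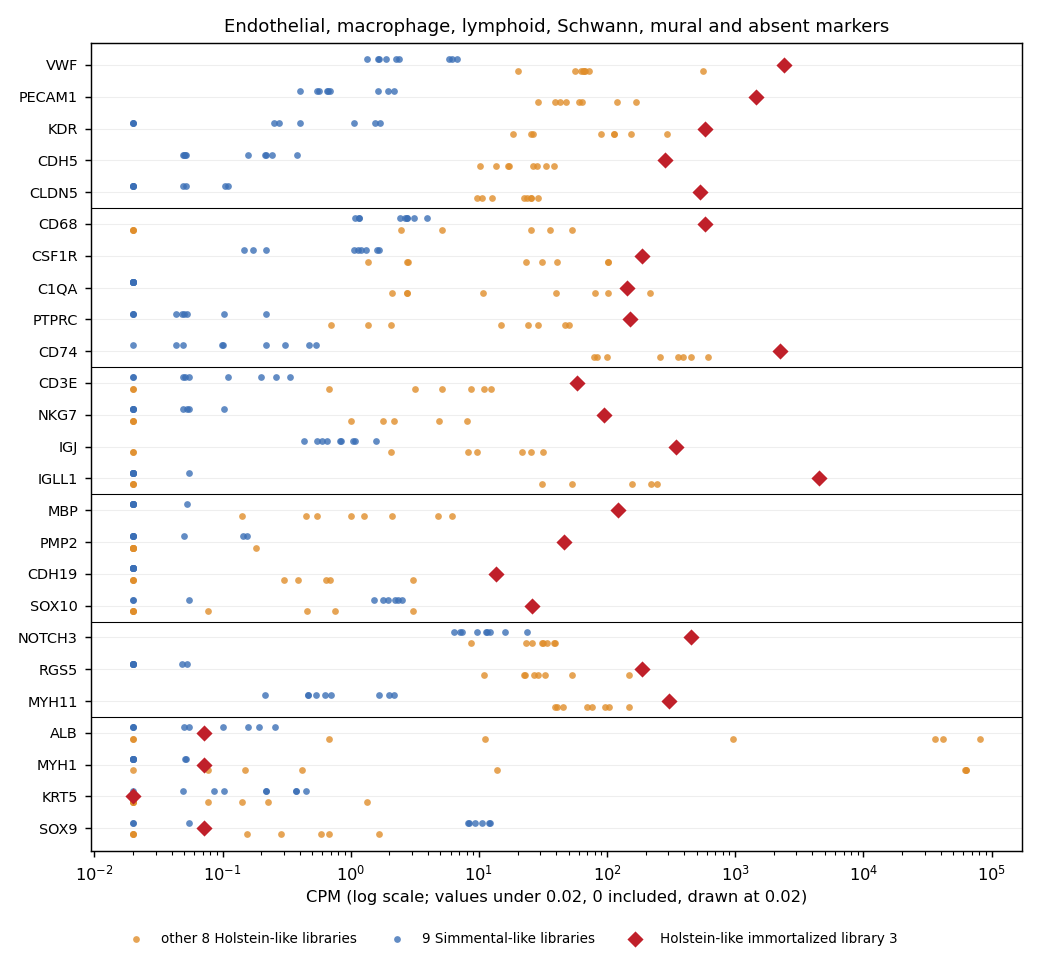
CPM of 25 genes in all 18 libraries on a log scale, in blocks of endothelial, macrophage and class II, lymphoid, Schwann cell, mural cell and absent markers. In the upper 5 blocks the library lies right of all of the 9 Simmental-like libraries; in the last block ALB, MYH1, KRT5 and SOX9 are at or under 0.0716 CPM in the library.

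Schwann cell genes, of the glia that ensheath peripheral nerve fibres, also lay above nearly as a whole list. Of 9 genes 8 were members above and all 9 were higher than in all of the 9 libraries. The sum was 1066 CPM against 10.6 to 38.3 CPM in the 9 and 34.4 to 266 CPM in the other 8. MBP, a protein of the myelin sheath, was at 122 CPM against 0, 0 and 0.0526 CPM in the 9 and 0.142 to 6.14 CPM in the other 8. PMP2, a lipid-binding protein of peripheral myelin, was at 45.9 CPM against 0, 0 and 0.155 CPM in the 9 and 0 to 0.182 CPM in the other 8. Both were higher in the library than in all 17 other libraries. SOX10, the factor that specifies both Schwann cells and pigment cells, was at 25.9 CPM against 0, 1.77 and 2.52 CPM. The pigment genes TYR, TYRP1 and MLANA had no count. PRX, EGR2 and DRP2, genes of myelinating Schwann cells that were chosen after their values were seen, were at 122, 13.3 and 11.7 CPM against at most 2.47, 2.27 and 0.474 CPM in the 9. Of 8 neuronal genes 4 were higher and 0 lower than in all of the 9. Their sum of 27.2 CPM was 1 of the 13 that lay 4-fold above the 9 (0.253 to 0.979 CPM), and the other 8 reached 9.29 CPM. STMN2 was the 1 member above (17.5 against 0, 0.105 and 0.762 CPM), and ELAVL4, GAP43 and NEFL had no count. Both the Schwann cell and the neuronal sum thus lay above the 9, while 3 neuronal genes were not detected at this depth.

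The adipocyte sum rested mainly on 1 gene. The sum was 2077 CPM against 27.6 to 66.3 CPM in the 9, and FABP4, a fatty acid carrier of fat cells, capillaries and macrophages, made up 1961 CPM of it (0.101, 17.8 and 31.9 CPM in the 9). ADIPOQ, the hormone that only fat cells secrete in quantity, was at 16.7 CPM against 0, 0.206 and 0.648 CPM. Simple epithelium had a small signal, with KRT8 at 27.7 CPM, EPCAM at 24 CPM, KRT19 at 14.2 CPM and KRT18 at 12.2 CPM, all at 0.911 CPM or less in the 9. Its sum of 87.5 CPM lay within the 0 to 737 CPM of the other 8.

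Markers of several other tissues were at or near 0, but the sums of the muscle precursor and hepatocyte lists were among the 13 that lay 4-fold above the 9. Of 11 keratinocyte genes 7 had no count, KRT5 and KRT14 among them, and the sum of 5.51 CPM did not exceed the 9 (4.53 to 29.3 CPM). Of 11 kidney genes 7, of 7 lung genes 6, of 5 tooth genes 4 and of 6 trophoblast genes 4 had no count. Skeletal muscle genes summed to 18.6 CPM, inside the range of the 9 (3.18 to 34.1 CPM), while the other 8 reached 253456 CPM. The muscle precursor sum was 39.4 CPM against 0.499 to 1.29 CPM in the 9 and up to 198 CPM in the other 8, and it rested mainly on 1 gene. That gene, CHRNA1, a chain of the acetylcholine receptor, was at 37.9 CPM against 0, 0 and 0.148 CPM, while PAX7, MYF5, MYF6 and MYOG had no count. The hepatocyte sum was 209 CPM against 0.598 to 4.74 CPM in the 9 and up to 195197 CPM in the other 8, and 6 of 12 genes were higher than in all of the 9. In this list APOA1 (123 CPM) and TTR (80.7 CPM), which other tissues also make, were members above. ALB was at 0.0716 CPM, and AHSG, APOB, APOC3, FGA and SERPINA1 had no count, whereas ALB reached 81265 CPM in the other 8. MYH1 and FGB, which took the most counts in some of the other 8, were at 0.0716 and 0.573 CPM in the library. Cartilage genes summed to 29.4 CPM, under all of the 9 (112 to 694 CPM), and SOX9, the factor of cartilage cells, was at 0.0716 CPM against 0, 8.34 and 12.3 CPM. Of the 16 cartilage genes 4 were higher and 3 lower than in all of the 9, against 29.4% and 22.3% of all genes.

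Bone and tendon genes were partly present. Of 14 osteoblast and osteocyte genes 6 were higher and 0 lower than in all of the 9, and their sum was 79.8 CPM against 9.39 to 27.6 CPM in the 9 and up to 664 CPM in the other 8. The 2 members above were ALPL, an alkaline phosphatase of mineralizing and other tissues, at 39.1 CPM with at most 0.737 CPM in the 9, and PTH1R, the parathyroid hormone receptor, at 16 CPM with at most 2.28 CPM. The bone matrix genes IBSP and MEPE had no count. Of 11 tendon and ligament genes 6 were higher and 2 lower than in all of the 9, with a median log2 difference of 1.36. KERA, a small proteoglycan, and THBS4, a thrombospondin of tendon, were members above at 24.2 and 18.8 CPM with at most 0.272 and 0.11 CPM in the 9. The tendon sum of 2009.6 CPM was under all of the 9 (6408 to 17319 CPM), where TNC alone had 5245, 7429.5 and 13802 CPM against 27.1 CPM in the library.

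Collagens differed among themselves. The 10 fibrillar collagen genes summed to 56020.4 CPM, above all of the 9 (21806 to 46667 CPM) and of the other 8 (204 to 1052 CPM), but none passed 4-fold upward. COL3A1, the chain of type III collagen in soft tissue and vessel walls, was at 12185 CPM against 1456, 3082 and 6792 CPM, above all of the 9. The chains COL5A1 and COL5A2, which start the fibrils, were at 607 and 481 CPM against 405, 1115 and 1612 CPM and 573, 1161 and 1887 CPM. COL11A1, known from cartilage and activated fibroblasts, was the 1 member below (14.7 against 108, 389 and 624 CPM). Fibril chains thus lay on both sides of the cultured cells. Of 24 network and associated collagens 5 were members above and 0 below. COL18A1, a basement membrane collagen, was at 727 CPM against 0.494, 4.81 and 5.9 CPM. COL4A1, the basement membrane chain that vessels make, was at 1095 CPM against 71.8, 186 and 412 CPM, above all of the 9 but by less than 4-fold. COL6A1, the chain of a microfibril collagen, was at 2965 CPM and lower than all of the 9 (4309, 4747 and 5229.5 CPM).

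Most transcripts for enzymes that mature collagen were lower in the library than in the 9. Of 23 collagen processing genes 16 were lower than in all of the 9, against 22.3% of all genes, 4 of these by 4-fold, and 0 were members above. The 3 genes higher than in all of the 9 were ADAMTS2, which trims procollagen, at 332 CPM against 122, 172 and 214 CPM, LOXL3 at 23.4 CPM against 10.6, 19.6 and 22.4 CPM and P4HA3 at 8.45 CPM against 2.32, 5.26 and 6.93 CPM. The median log2 difference was -1.52, and the sum was 3250.5 CPM against 8378 to 14392 CPM in the 9. LOXL2, which cross-links collagen, was at 64.1 CPM against 563, 814 and 1168 CPM. LOXL1 and LOXL4 of the same family were at 45.3 and 0.93 CPM against 321, 594 and 1308 CPM and 47.3, 90.6 and 254 CPM. PLOD2, which hydroxylates collagen for cross-links, was at 38.8 CPM against 170.4, 188 and 321 CPM, a ratio of 4.39 that ends under 4 with the other scalings. SERPINH1, the collagen chaperone, was at 525 CPM against 1814, 1981 and 3384 CPM, lower than all of the 9 but by less than 4-fold. Library and 9 did not overlap in any of these 5 genes.

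**Figure D4:**
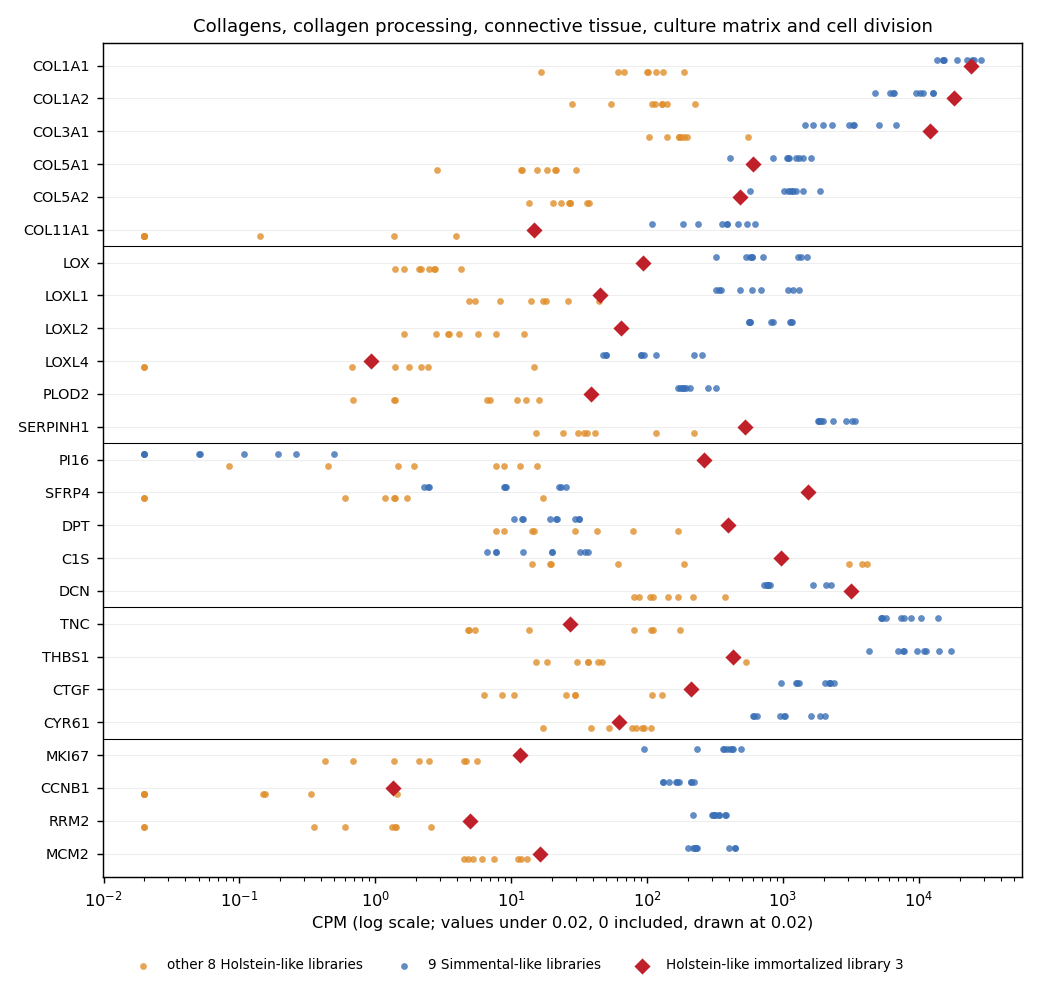
CPM of 25 genes in all 18 libraries on a log scale, in blocks of fibrillar collagens, collagen processing, connective tissue fibroblast genes, matrix genes of cultured cells and cell division genes. The library is close to or above the 9 Simmental-like libraries in COL1A1, COL1A2 and COL3A1. In the genes drawn from the connective tissue list, which are not the whole list, it is right of all of the 9. It is left of all of them in the genes drawn from the collagen processing, culture matrix and cell division blocks.

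Fibroblast genes separated by type. Of 19 connective tissue fibroblast entries 7 were members above and 0 below. By any amount, 13 were higher and 1 lower than in all of the 9, and 5 lay inside their range. The sum was 16127 CPM against 4155 to 9746 CPM. SFRP4, a secreted regulator of Wnt signals, was at 1543 CPM against 2.29, 9.04 and 25.1 CPM in the 9 and 0 to 17.2 CPM in the other 8. PI16, a marker of fibroblasts around vessels, was at 261 CPM against 0, 0.0515 and 0.494 CPM. C1S, a complement protease, was at 967 CPM against 6.63, 19.9 and 37 CPM, although 4192 CPM was reached in the other 8. DPT, CLEC3B and CFD, secreted products of resting fibroblasts or fat tissue, were at 396, 528 and 113 CPM with at most 31.5, 39 and 0.105 CPM in the 9. DCN, the proteoglycan decorin, was at 3187 CPM against 731, 778 and 2261 CPM, above all of the 9 but by less than 4-fold. PDGFRA, the receptor by which fibroblasts are usually recognised, was inside the range of the 9 (353 against 193, 259 and 689 CPM). Outside the lists and chosen after their values were seen, PODN, SCARA5, TNXB and MGP were at 590.5, 558, 780.3 and 563 CPM against at most 0.919, 9.4, 25.8 and 1.08 CPM.

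The list for cultured fibroblasts went the other way. Of 15 entries 10 were lower than in all of the 9, 2 of them 4-fold, 1 was higher than in all and 0 were members above. Their sum was 15065 CPM against 30748 to 64622 CPM in the 9 and 2547 to 12202 CPM in the other 8. The order against the other 8 depended on the scaling. The ratio to their highest was 1.23 in CPM, but 0.603 with TMM, 0.547 with RLE and 0.481 with upper-quartile scaling. VIM, the intermediate filament of mesenchymal cells, was at 5164 CPM against 11357, 13505 and 24248 CPM. TPM1, a tropomyosin of stress fibres, was at 51.7 CPM against 481, 912 and 1469 CPM. ANXA2, a membrane-binding protein, was at 804 CPM against 3400.1, 6213 and 10326 CPM, with a ratio of 4.23 that ends under 4 with the other scalings. All 3 genes were lower in the library than in every one of the 9, and VIM and ANXA2 were higher in it than in all of the other 8.

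Matrix genes that cultured fibroblasts make in quantity were among the members below that took the most counts in the 9. TNC, which encodes tenascin-C, was at 27.1 CPM in the library against 5245, 7429.5 and 13802 CPM in the 9, 193-fold under the lowest. THBS1, a thrombospondin, was at 431 CPM against 4329, 9635 and 17261 CPM. The other 8 had 4.8 to 174 CPM of TNC and 15.2 to 537 CPM of THBS1, so in these genes the library lay among the Holstein-like libraries. CTGF and CYR61, matrix proteins switched on by stretch and by YAP, were at 210.4 and 62.5 CPM against 973, 2026 and 2361 CPM and 605, 1022 and 2027 CPM. ANKRD1, a further gene of that response, had no count in the library against 52.7, 83.7 and 270.1 CPM, at least 245-fold under the lowest of the 9. ESM1, an endothelial proteoglycan that these fibroblasts also made, was at 0.859 CPM against 322, 722 and 1153 CPM, although the 12 endothelial list genes were all above. FST, which binds activin, was at 1.00 CPM against 313, 503 and 733 CPM. SST, the hormone somatostatin, had no count against 74.8, 143 and 1385 CPM, at least 348-fold under the lowest of the 9.

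Cell division genes were low without exception in the list. Of 23 genes all were lower than in all of the 9 and 21 passed 4-fold, with a median log2 difference of -4.57. Their sum was 227 CPM against 2299.6 to 4354 CPM in the 9, 10.1-fold under the lowest, and 45.7 to 159 CPM in the other 8. CCNB1, the cyclin of mitotic entry, was at 1.36 CPM against 131, 167 and 221 CPM. RRM2, which makes the building blocks of DNA, was at 4.94 CPM against 218, 318 and 379 CPM. MCM2, a part of the replication helicase, was at 16.2 CPM against 199, 229 and 444 CPM. MCM6 and PCNA were the 2 genes that missed the limit, at 33.3 against 44.5, 159.9 and 172 CPM and 45.9 against 117, 146 and 224 CPM. The senescent libraries are among the 9, and the library was under them too. The count of members below was 982 against the 3 senescent libraries alone, 943 against the 3 immortalized and 443 against the 3 primary ones.

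Genes of growth arrest lay on both sides. Of 18 entries 2 were members above, 2 below, 5 were higher and 9 lower than in all of the 9. CDKN1C, an inhibitor of cell cycle kinases that many resting tissues express, was at 98.1 CPM against 0, 0.0967 and 12.2 CPM. CDKN2A, whose locus encodes a senescence inhibitor, was at 0.286 CPM against 11.8, 64.9 and 152 CPM, and CDKN1A at 46.9 CPM lay under all of the 9 (59.8, 122 and 199 CPM). IGFBP5, a binding protein of insulin-like growth factors, was at 225 CPM against 7.04, 18.1 and 38.9 CPM. IL6, a secreted factor of many senescent cells, was at 0.501 CPM in the higher of its 2 entries, with at most 6.53 CPM in the 9.

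IGF2, an imprinted growth factor, separated the lines more than it separated the library. It was at 1784 CPM in the library against 0.0997, 0.474 and 0.79 CPM in the 9, and at 157 to 2438 CPM in the other 8. All 9 Holstein-like libraries were above all of the 9, so in this gene the line and the library cannot be told apart. The fetal genes AFP, LIN28B, IGF2BP1 and HMGA2 had no count in the library. Among factors that keep body position, MEOX1 and MEOX2, of the somite lineage and vessels, were members above, at 170 against 1.83, 14.3 and 32.4 CPM and 194 against 4.31, 9.36 and 12.5 CPM. HAND2, a factor of limb and heart mesenchyme, had no count against 46.9, 57.6 and 76.5 CPM, and PAX3 had none against 8.25, 43.5 and 50.3 CPM. TWIST1 was at 11.3 CPM against 49.8, 80.2 and 101 CPM, with a ratio that ends under 4 with the other scalings. Of 35 HOX genes, which mark the position along the body axis, 12 were higher and 9 lower than in all of the 9, against 29.4% and 22.3% of all genes. Their median log2 difference was 0. Of them 2 were members below, HOXC4 (5.44 against 30.5, 33.9 and 70.8 CPM) and HOXC8 (3.36 against 14.6, 23.2 and 38.2 CPM), and 0 above. HOXA9 at 51.1 CPM and HOXA10 at 19.2 CPM were present, with 70.3, 92.5 and 182 CPM and 14.7, 19 and 31.4 CPM in the 9.

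Set against the other 8 Holstein-like libraries by the same rule, 675 of 17479 genes with a count in these 9 libraries lay above the highest, 3.86%. This number depends on the scaling and on 1 library. It was 346 with TMM, 314 with RLE and 336 with upper-quartile scaling, and 1063 without Holstein-like immortalized library 2. Of the 1017 members above the Simmental-like libraries, 719 were higher in the library than in all of the other 8 (against 33.5% of the 17479 genes), 321 of them by 4-fold, 292 lay within their range and 6 were lower than all of them. Both counts use the same library and are not independent. The members were picked for high CPM in this library, while the 33.5% includes genes with hardly any counts in it. A larger share among the members is thus built into the rule and is not read as a result. Besides CATD, FTH1, IGLL1, VWF, FABP4, SFRP4 and PECAM1, the 8 genes with a symbol and the highest CPM above both sets included CST3, the protease inhibitor cystatin C, at 1522 CPM against 87.8, 139.6 and 331 CPM in the 9 and 30.9 to 361 CPM in the other 8. The entry without a symbol, ENSBTAG00000048135, was also above both. CST3 and FTH1 end under 4-fold from the 9 with the 3 other scalings. The single other libraries had 233 to 506 of the 1017 genes at 10 CPM or more, the most in Holstein-like immortalized library 2 and the fewest in primary library 3, which is also the shallowest. Over all 24596 genes the same libraries had the most (9204) and the fewest (5538) at 10 CPM or more. Nothing about the members is read from this order.

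Some members did not single out the library among the Holstein-like libraries. All 9 Holstein-like columns of the table carry the word Rerun in their names and none of the Simmental-like columns does. What was rerun is not given in the sources used here. The line, the animal it came from and whatever this word stands for therefore cannot be told apart. Of the members above, 118 were at 10 CPM or more in all 9 Holstein-like libraries, IGF2 among them. Of the members below, 28 were under 1 CPM in all 9. RPS29, a ribosomal protein that every cell makes, was at 0.0716 CPM in the library and at most 0.071 CPM in the other 8 against 12.3, 22.5 and 36.4 CPM in the 9. SHFM1, a proteasome component, had no count in the library and at most 0.775 CPM in the other 8 against 51.9, 80.4 and 153 CPM. COX7B is listed in several entries that may share reads: 1 was a member above (50.4 CPM, at most 0.226 CPM in the 9) and 2 were members below. Such housekeeping genes are no marker of a cell type, and what sets them apart was not tested.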

How the data were processed

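RNA sequencing libraries were analysed from the deposited gene table of 18 libraries. Per the labels' protocols, total RNA was extracted with RNeasy kits, and libraries were made with NEB kits and sequenced as single reads on a NextSeq. The authors deposited estimated counts (expected counts) per Ensembl gene for all libraries, which the table's own name ascribes to salmon. The genome build was UMD 3.1 per the submitters' processing notes. Which salmon version, annotation release or strand setting was used is not given in the sources used here, and reads of a gene and an overlapping antisense gene cannot be told apart. Of the values of the library, 3.03% were not whole.

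Counts were divided by the column total and multiplied by 1e+06 (CPM), without rounding, and no gene was left out of the totals. No length is given in the table, so levels are compared between libraries and not between genes. Columns were matched to samples through the description labels, and 0 columns were left without a sample. The 4-fold and 10 CPM limits were applied as stated. No test was run, since 1 library has no replicate. A ratio to a side at 0 was taken against 3 counts per library, and for 1 to 3 counts the ratio has an exact 95% interval that covers counting error only. List medians used log2 of CPM plus 0.5 against the median of the 9. Spearman correlations with the library over genes were 0.714 to 0.763 in the 9 and 0.655 to 0.747 in the other 8; genes are not independent replicates.

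The members and the 47 marker lists (623 symbols, 574 found) were chosen with earlier results of these data known. Of the 24596 genes, 4628 have an Ensembl identifier as their name and could not be matched to a symbol. The named genes are the 4 markers with MKI67, per direction the 12 members with a symbol and the highest CPM and the 10 with the largest ratio, up to 5 members of each list by CPM and list genes without counts, the 3 genes just inside and outside each limit, and the 8 highest above both sets. Only some of these are printed, a few are not reported here, other list genes show a group's spread, and any further gene is marked as chosen after its values were seen. The calls were tested on simulated data. Alternatives were TMM, RLE and upper-quartile scaling (edgeR 4.0.16 in R 4.3.3), totals without mitochondrial and the 10 most abundant genes, other limits, the mean as the reference, each stage alone and leaving out each library. Tables were handled with Python 3.11.15, numpy 2.4.6, pandas 2.3.3 and scipy 1.17.1.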

Additional observations from a re-analysis of the deposited data

How the results depend on the processing

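Of 144 members named by the rule, 0 changed direction with TMM, RLE or upper-quartile scaling, and 12 ended under 4-fold with at least 1 of these scalings (AARS, ANXA2, CBX5, CST3, EIF5A, FTH1, PDGFRB, PLOD2, TNS1, TUBB4B, TWIST1 and TYMS). The count of genes above the 9 moved from 1017 to 1539 with a 2-fold limit, 1751 with a minimum of 1 CPM and 447 with a minimum of 50 CPM, and ranged from 1019 to 1034 when 1 library was left out. The count below moved from 347 to 1044 and 192 with limits of 2-fold and 8-fold, 559 and 149 with minimums of 1 and 50 CPM, 922 against the mean of the 9, and 982 and 943 against the senescent or immortalized libraries alone; it ranged from 347 to 446 when 1 library was left out. Both counts stayed within 1.5 times of these values under the other scalings. The count above the other 8 was 675, and it moved to 346, 314 and 336 with TMM, RLE and upper-quartile scaling, 1605 and 258 with limits of 2-fold and 8-fold, 375 with a minimum of 50 CPM and 1830 against their mean. It ranged from 676 to 1063 when 1 library was left out, the highest without Holstein-like immortalized library 2. Without the 3 shallow Holstein-like primary libraries, an alternative chosen after seeing the data, it was 725. These changes follow from the limits themselves for the fold and CPM settings; for the scalings the cause was not tested. The number of cell type lists with a sum 4-fold above the 9 was 13, also 13 with each of the 3 scalings and 15 without the most abundant gene of each list; 4 of them were 4-fold above the other 8 too, and 1 with TMM, 1 with RLE and 1 with upper-quartile scaling (RLE and upper-quartile for the first count and all 3 for the second were added after seeing the data). No paired analysis was possible because the results come from no test and 1 library has no partner. Depth limits genes listed at 0: the library allows up to 0.215 CPM for them, and the shallowest of the other 8 allows 2.11 CPM.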

Other observations

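The following genes belong to no list and were chosen after their values were seen. Beta-defensins, the antimicrobial peptides that bovine epithelia make, were found in the library and hardly elsewhere. TAP, the tracheal antimicrobial peptide, was at 71.6 CPM in the library, at most 0.789 CPM in the 9 Simmental-like libraries and at most 0.091 CPM in the other 8 Holstein-like libraries. EBD, the enteric beta-defensin, was at 26.8 CPM, with 0 counts in all of the 9 and at most 0.091 CPM in the other 8. DEFB5 was at 18 CPM with 0 counts in all 17 other libraries. Defensin genes are close copies of each other, so their reads may be split. DUOX2, an oxidase of epithelial surfaces, was at 12.2 CPM against at most 1.17 CPM in the 9 and 0.923 CPM in the other 8. E-CADHERIN, the table's name for the epithelial cadherin, was at 20.7 CPM against 0.148, 1.89 and 4.33 CPM in the 9, and the other 8 reached 115 CPM. These epithelial genes were present although KRT5, KRT14 and the lung genes SFTPC and SCGB1A1 had no count. The antigen-presenting molecule CD1E, known from dendritic cells, was at 15.5 CPM with 0 counts in all of the 9. Its relative CD1A has 2 entries, of which 1 was at 14.5 CPM against at most 0.0526 CPM in the 9, while the other was at 0.358 CPM and no member.

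Genes for making amino acids and loading them onto tRNA were among the members below. PHGDH, PSAT1 and PSPH, the 3 enzymes of serine synthesis, were at 20.0, 12 and 3.08 CPM in the library against medians of 776, 390.2 and 159.5 CPM in the 9. ASNS, which makes asparagine, was at 24.6 CPM against 175, 322 and 367 CPM as the lowest, median and highest of the 9. GARS, the glycine tRNA ligase, was at 58.3 CPM against 429.9, 615 and 682 CPM, and MARS, the methionine tRNA ligase, at 36.7 CPM against 183, 212 and 336 CPM. The other 8 had medians of 35.1, 6.37 and 37.1 CPM of PHGDH, ASNS and GARS, so these genes were low in most Holstein-like libraries. TXNIP and PDK4, which restrain glucose use and are high in resting tissues, lay on the other side: TXNIP was at 3004 CPM against 40.3, 78.4 and 141 CPM and PDK4 at 573 CPM against 0.543, 1.21 and 2.06 CPM, with 165 to 1284 CPM and 41.5 to 1926 CPM in the other 8. Of secreted neural factors, BDNF and VGF had no count in the library against 18.1, 22.7 and 23.8 CPM and 13.1, 24.4 and 136 CPM in the 9. What links these genes was not tested.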
